A study of Mus musculus with 13 samples.

Results

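SMAD3 carries the TGF-β and activin signal into the nucleus, where it works with SMAD4 and binds DNA weakly through short CAGAC or GGCGC elements. Because such elements are common, the factors already present in a cell type, such as AP-1 and TEAD in fibroblasts, largely set which distal elements SMAD3 occupies. The peaks described here are distal sites at which SMAD3 was called both with and without induction of the reprogramming factors.

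The regions are 826 SMAD3 ChIP-seq peaks of 12576 in the merged list of doxycycline (dox)-treated cells. They were chosen by measured values: each overlapped a SMAD3 peak of the merged list without dox, overlapped no site that the authors' table lists as differentially bound between the 2 states, and had its center more than 1000 bp from every annotated transcript start. The overlap and the absence of a listed difference are therefore part of the choice and not a result. The other merged Dox+ peaks comprised 6486 promoter peaks kept in the same way, 2631 distal and 2278 promoter peaks without a Dox- partner, and 80 distal and 275 promoter peaks that had a partner but touched a listed site. The nearest kept peaks on the promoter side of the limit lay 992, 993 and 998 bp from a transcript start (nearest 5830454E08Rik, G730013B05Rik and Plpp3), and the nearest members lay 1005, 1009 and 1011 bp away (nearest Gm26664, Usp49 and Trim47).

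All samples were mouse embryonic fibroblasts (MEFs) at day 3, from a TNG MKOS mouse line of mixed background that carries Nanog+/GFP, a tetO-driven c-Myc, Klf4, Oct4 and Sox2 cassette with an mOrange reporter in the Sp3 locus, and CAG-driven rtTA. Every group, the Dox- group included, had been infected with a retrovirus expressing Smad3CA, a constitutively active SMAD3, so none of the libraries reports SMAD3 at its native level. SMAD3 was immunoprecipitated after 1 µg/ml dox (Dox+, n = 3) and without dox (Dox-, n = 3), OCT4 after dox (n = 3), and inputs were sequenced with dox (n = 2) and without it (n = 2). The dox dose is that of the labels, and the methods give a lower one for reprogramming in general. Whether replicates came from separate cultures is not stated, so the spread between them may be technical.

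The replicate lists differed in length before any comparison is made. They held between 420 and 23981 peaks in Dox+, between 1656 and 18588 in Dox-, and between 102 and 1181 for OCT4, and replicate 2 gave the longest list of both SMAD3 groups. Read totals are not known from the peak lists. A peak absent from a short list is a peak that was not called there, and not a site shown to be unbound.

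The fold enrichment and q-value attached to the broad SMAD3 peaks did not repeat between lists. Among overlapping peaks of 2 lists of the same group, Spearman's rho of the fold ranged from -0.04 to 0.10 over the 12 pairs of lists, and that of the -log10 q from -0.02 to 0.12. The same comparison among the OCT4 narrow-peak lists gave 0.30 to 0.69 for the fold. Against the deposited coverage over the central 20 bp of OCT4 regions, the merged Dox+ SMAD3 fold had a rho of -0.04 over 503 regions, while the OCT4 fold had 0.51 over 2022 regions. Those positions are centers of OCT4 regions and need not be centers of SMAD3 peaks. Between neighbouring peaks of 1 list the merged SMAD3 folds had a rho of 0.32 in Dox+ and 0.25 in Dox-, against 0.01 in the merged OCT4 list. These are descriptions across regions of shared libraries, and the cause was not tested. Whether a fold printed for a SMAD3 peak belongs to that peak or to another was not tested. Positions, widths and overlaps of the SMAD3 peaks do not use these columns, and the account below rests on them. Fold values are printed as deposited and are not read as strength of binding.

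With that limit, the merged fold of the members had a median of 2.30 in Dox+ (range 1.08 to 11.3) and 2.32 in Dox- (1.13 to 7.29). In the 15 members with more than 1 merged Dox- peak, the Dox- value is the highest of these. The Dox+ value was the higher one in 403 of 826 members (48.8%), and the median log2 ratio of Dox+ over Dox- was -0.01, with an SD of 0.54 over members. In 59 members the ratio exceeded 1 on the log2 scale in either direction. Across members, the 2 merged folds had a Spearman's rho of 0.02 and a Pearson's r of 0.06 on the log2 scale (n = 826). Because the members were chosen for the lack of a listed difference, no test was made of these values.

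**Figure D1:**
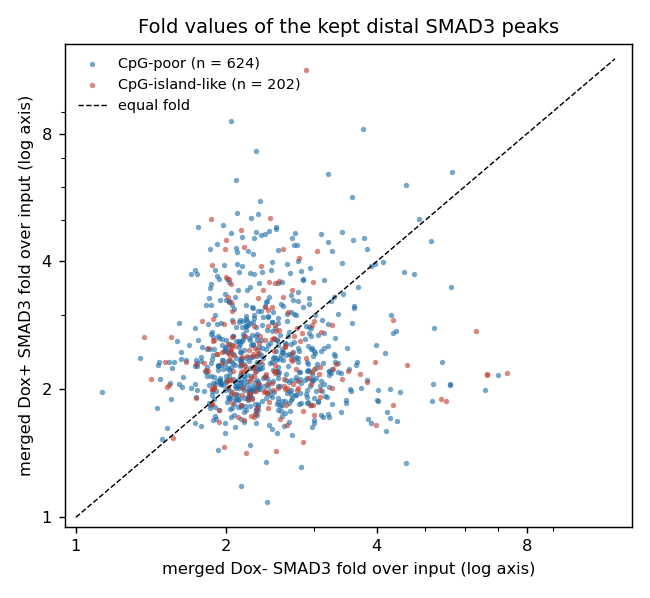
Fold over input of the 826 kept distal SMAD3 peaks in the merged Dox- list (x axis) and the merged Dox+ list (y axis), both on log axes, with 1 point per peak, coloured by CpG class. The points form a cloud around 2.3 on both axes with no visible trend along the dashed line of equal fold.

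Support of the members by single replicates followed the length of the lists. In Dox+, replicate 1 overlapped 14 members (1.69%), replicate 2 overlapped 816 (98.8%) and replicate 3 overlapped 580 (70.2%). In Dox-, the replicates overlapped 75 (9.08%), 791 (95.8%) and 228 (27.6%). Replicate 2 thus held nearly every member in both states, while the first replicates held few. At least 2 Dox+ lists supported 572 members, at least 2 Dox- lists supported 249, and 201 members (24.3%) had at least 2 lists of each group. Without Dox+ replicate 2 or 3 that number was 11, without Dox- replicate 2 it was 40, and without Dox- replicate 3 it was 67. No Dox- replicate list held 22 members and no Dox+ replicate list held 1, although the merged lists did.

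For comparison, the same lists overlapped a larger share of the kept promoter peaks. Dox+ replicate 3 overlapped 85.8% of them and Dox- replicate 3 overlapped 38.3%. Of the Dox+-only distal peaks, Dox+ replicate 3 overlapped 40.1%, below the share of the members, and Dox- replicate 2, the long Dox- list, overlapped 14.7% although these peaks have no partner in the merged Dox- list. When the regions the authors tested were rebuilt as joined peaks present in at least 2 of the 6 SMAD3 replicate lists, 2080 of 13218 (15.7%) were listed as different between Dox+ and Dox-. Of the members, 815 lay in such a tested region, and by the rule none was listed. Being absent from a table that holds only sites past the authors' FDR and fold limits does not show that binding was equal.

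**Figure D2:**
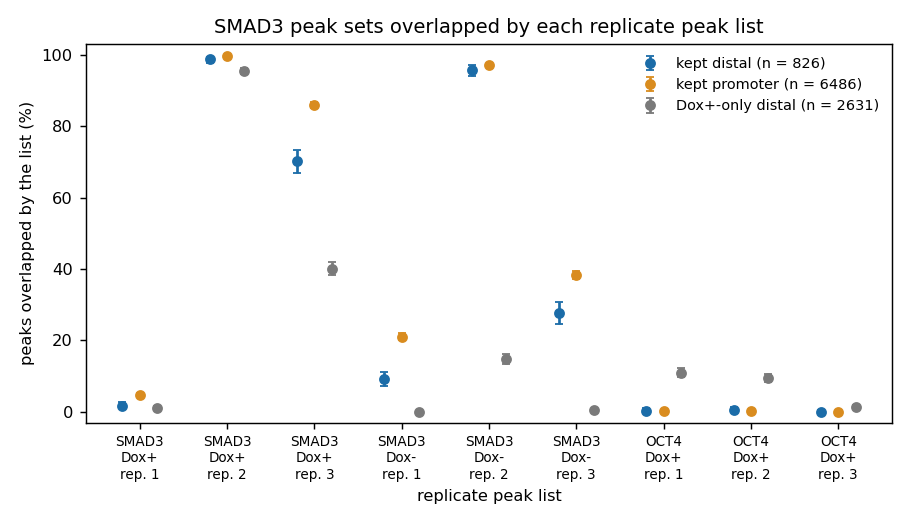
Share of the kept distal, kept promoter and Dox+-only distal SMAD3 peaks (y axis, percent) overlapped by each replicate peak list (x axis), with exact 95% binomial intervals. The kept distal peaks reach 98.8% and 95.8% in the replicate 2 lists of SMAD3 and stay below 1% in the OCT4 lists.

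The only peaks among the members found in all 6 SMAD3 lists were 4. They lay across Neat1, the long noncoding RNA of paraspeckles, in an exon of 4932441J04Rik beside Pcdh7, past the end of Gys1 beside Ftl1, a ferritin light chain gene, and between Tex44 and Ptma. The Neat1 peak (chr19:5821615-5844766) was 23152 bp wide, the widest of the members. Over it lay 3 peaks of the merged Dox- list. The highest fold of any replicate peak overlapping it was 3.43, 2.92 and 2.89 in the Dox+ replicates. In the Dox- replicates it was 2.81, 2.70 and 2.60. These 4 were singled out after their values were seen.

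The position relative to genes was wide-ranging. The median distance of the members to the nearest transcript start was 5172 bp (range 1005 to 271525), and 427 of them (51.7%) lay over 5000 bp away. The center fell in an exon in 104 members (12.6%, exact 95% interval 10.4 to 15.0%), in an intron in 264 and between genes in 458 (55.4%). The intronic share was 44.2% among the 2631 Dox+-only distal peaks, outside the interval of the members, which was 28.8 to 35.3%. Among the 80 distal peaks with a Dox- partner that touched a listed site it was 30% (20.3 to 41.3%), near that of the members. These intervals, here and below, cover counting error over peaks of the pooled libraries only.

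Many members were centered just past the ends of genes. In 205 members (24.8%, interval 21.9 to 27.9%) the center lay outside every gene and up to 5 kb downstream of an annotated end of a protein-coding or long noncoding RNA gene. The share was 14.6% (13.3 to 16.0%) among the Dox+-only distal peaks and 5.13% among the kept promoter peaks. Of the 80 distal peaks with a Dox- partner that touched a listed site it was 31.2% (21.3 to 42.6%). In the first 1000 bp past the nearest end lay 11.5% of the members, and in the next 1000 bp 10.0%, against 4.79% and 5.25% of the Dox+-only distal peaks. Among members in at least 2 lists of each group the downstream share was 33.8% (68 of 201), and among Dox+-only distal peaks in at least 2 Dox+ lists it was 23.3% (233 of 1002). A promoter SMAD3 peak lay within 5000 bp of the center in 190 members (23.0%).

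**Figure D3:**
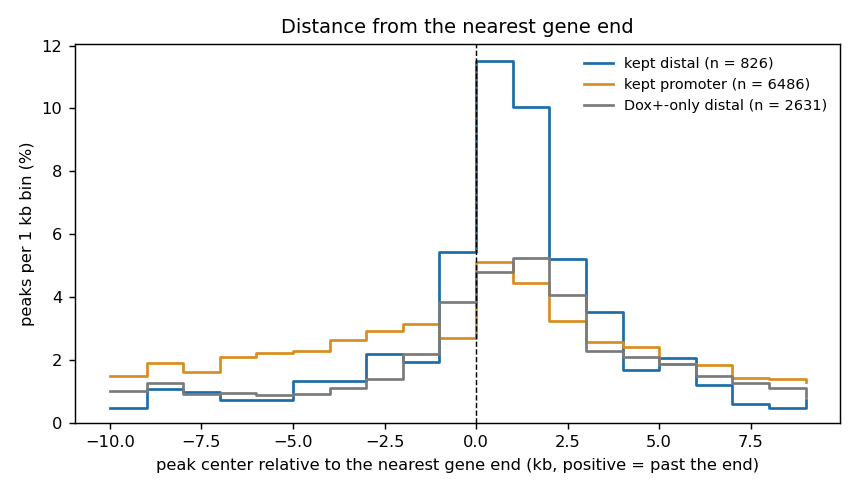
Share of each peak set (y axis, percent per 1 kb bin) by the position of the peak center relative to the nearest gene end (x axis, kb, positive values lie past the end). The kept distal peaks reach 11.5% and 10.0% in the first bins past the end, the highest bins of the 3 sets in this range.

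Some of the genes at these ends are named here, picked after the list was seen and without a count of their kinds. Downstream members lay past Actb and Malat1, past the translation genes Eif1, Eif3d, Rpl19, Rps12 and Rps15a, and past the splicing factor genes Srsf1 and Srsf3. Others lay past Mcl1, which blocks apoptosis, Socs3, an inhibitor of cytokine signalling, Hes1, a Notch target, and Atf4, a stress-response factor. Here and elsewhere, past an end refers to the peak center, and a peak can reach back into the gene. The Atf4 and Malat1 peaks, centered 200 and 104 bp past the end, did so. RNA was not measured in these samples. The Actb peak spanned 4568 bp and was called in 2 Dox+ and 3 Dox- lists, the Atf4 peak spanned 3437 bp with the same support, and the Mcl1 peak spanned 5473 bp with 2 Dox+ lists and 1 Dox- list.

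Wide peaks were frequent among the members. The median width was 613 bp (171 to 23152), close to the 575 bp of the kept promoter peaks and above the 330 bp of the Dox+-only distal peaks. At least 2000 bp were covered by 68 members (8.23%, interval 6.45 to 10.3%), against 2.45% of the kept promoter and 1.33% of the Dox+-only distal peaks, and 12.5% (6.16 to 21.8%) of the 80 partnered but listed distal peaks. A wider peak overlaps a Dox- peak more readily by its length, and that overlap is part of how the members were chosen. These 68 held 30.8% of all bases in the members. Of the wide members, 32 (47.1%) lay downstream of a gene end, against 22.8% of the other 758, and 44 (64.7%) were in at least 2 lists of each group, against 20.7%. A wide peak also meets more lists by its length, and when a list peak had to overlap the 200 bp around the center the shares were 20.6% (14 of 68) and 15.3% (116 of 758).

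After Neat1 the widest members lay beside Tnrc18 (7246 bp), between the end of Vmp1 and Mir21a (6319 bp), in Ppp1r10 (5538 bp) and past Mcl1. Mir21a encodes miR-21, a microRNA raised by TGF-β in many cells, and the peak beside it was in 2 Dox+ and 3 Dox- lists. A 2847 bp member lay in Dnm3os, the host transcript of Mir214, and was in 2 Dox+ and 3 Dox- lists. Id2, Fosl2 and Hes1 had wide members of 2933, 3546 and 2656 bp, each in 2 lists of both groups.

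The members were split into 2 classes by fixed limits of CpG content. Over the whole peak, 202 members (24.5%, interval 21.6 to 27.5%) had a GC content above 50% and a CpG observed/expected ratio above 0.6 and are called CpG-island-like. The other 624 missed at least 1 of these limits and are called CpG-poor. They include members with a high ratio, such as the one nearest Gm44066 (ratio 0.786, GC content 49.9%). Among the kept promoter peaks 88.7% met this definition, among the Dox+-only distal peaks 4.64% (3.87 to 5.51%), and among the 80 partnered but listed distal peaks 8.75% (3.59 to 17.2%). The members' median GC content was 53.7%, between 48.9% in the Dox+-only distal and 65.7% in the kept promoter peaks. Among members in at least 2 lists of each group the CpG-island-like share was 32.8%. It was 91.0% for promoter peaks with the same support and 5.99% for Dox+-only distal peaks in at least 2 Dox+ lists.

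Both classes lay at some distance from known starts, with a median of 4112 bp for the CpG-island-like and 5394 bp for the CpG-poor members. Their median widths were 581 and 626 bp. Downstream of a gene end lay 24 of the 202 CpG-island-like members (11.9%) and 181 of the 624 CpG-poor members (29.0%). The position past gene ends was thus mostly found among CpG-poor members.

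**Figure D4:**
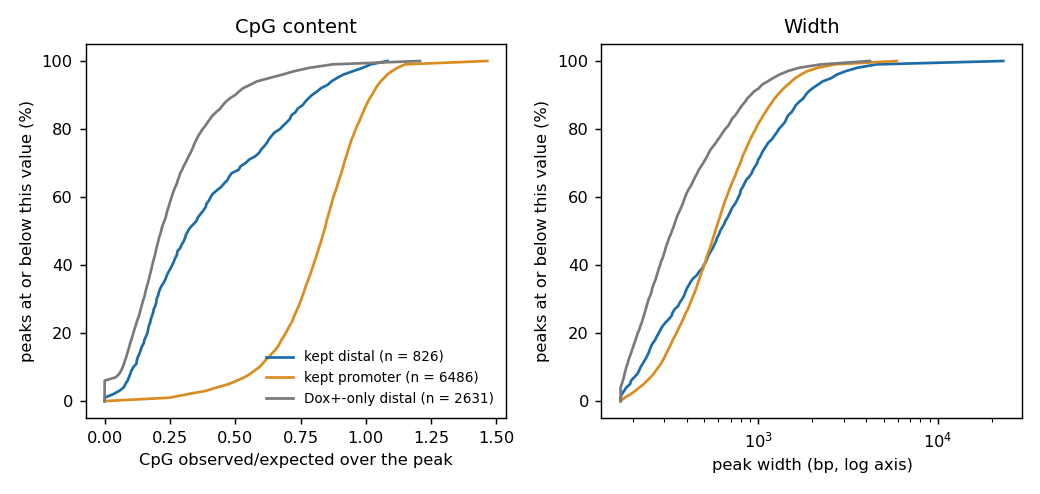
Cumulative share of peaks (y axes, percent) by CpG observed/expected ratio over the peak (left) and by peak width in bp on a log axis (right), for the 3 peak sets. The CpG curve of the kept distal peaks runs between those of the other sets, and their width curve has the longest tail, up to 23152 bp.

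Letters around the center differed in the same way. In the 200 bp around the center, the GC-rich SMAD element GGCGC was found on either strand in 26.4% of the members (interval 23.4 to 29.5%), against 10.8% of the Dox+-only distal peaks, 68.0% of the kept promoter peaks, 50.2% of all 12576 merged Dox+ peaks and 10.1% of windows 1000 bp to each side of the members. It was in 67.3% of the CpG-island-like and 13.1% of the CpG-poor members. The SMAD half-site CAGAC was in 39.5% of the members, 40.9% of the Dox+-only distal peaks, 34.9% of all peaks and 40.3% of the flanks, so its share at the members was that of the sequence beside them. The palindrome GTCTAGAC, which joins inverted copies of the half-site core, was rare, with 8 members (0.969%, and 0 of those 133 that had a -log10 q of at least 2 in both merged lists) against 0.342% of the Dox+-only distal peaks, 0.247% of all peaks and 0.303% of flanks.

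Motifs of fibroblast factors were present at lower shares than in the Dox+-only distal peaks or close to them. The AP-1 site TGACTCA was in 8.23% of the members (6.45 to 10.3%), against 11.1% of the Dox+-only distal peaks, 1.48% of the kept promoter peaks, 4.29% of all peaks and 4.36% of flanks. Among CpG-poor members it was in 9.78%, and among CpG-island-like ones in 3.47%. The TEAD core GGAATG was in 16.6% of the members (12.03% of the 133 with a -log10 q of at least 2 in both merged lists), 14.7% of the Dox+-only distal peaks, 8.90% of all peaks and 11.1% of flanks. The RUNX core TGTGGT was in 12.1%, below the 17.5% of the Dox+-only distal peaks and the 14.5% of flanks, with 9.18% over all peaks.

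The GC-box, ETS and NRF1 shares of the members lay between those of the Dox+-only distal and the kept promoter peaks. The SP GC-box GGGCGG, which can overlap the GC-rich SMAD element, was in 20.9% of the members, 13.4% of the Dox+-only distal, 60.1% of the kept promoter and 45.4% of all peaks, but in 13.5% of the members with a -log10 q of at least 2. The ETS site CCGGAAG was in 4.12%, 1.41%, 14.2% and 10.5% of the same sets. The NRF1 motif was in 2.66%, 0.570%, 9.77% and 6.64%, and the CTCF consensus, highest in the members, in 1.21% (interval 0.582 to 2.22%), 0.798%, 0.370% and 0.573%. The NFY motif was in 20.9%, 20.8%, 19.7% and 20.8%. For the motif shares, the filter on -log10 q used values that did not repeat between lists, and only the members were filtered. A match says only that the letters are present in the window.

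**Figure D5:**
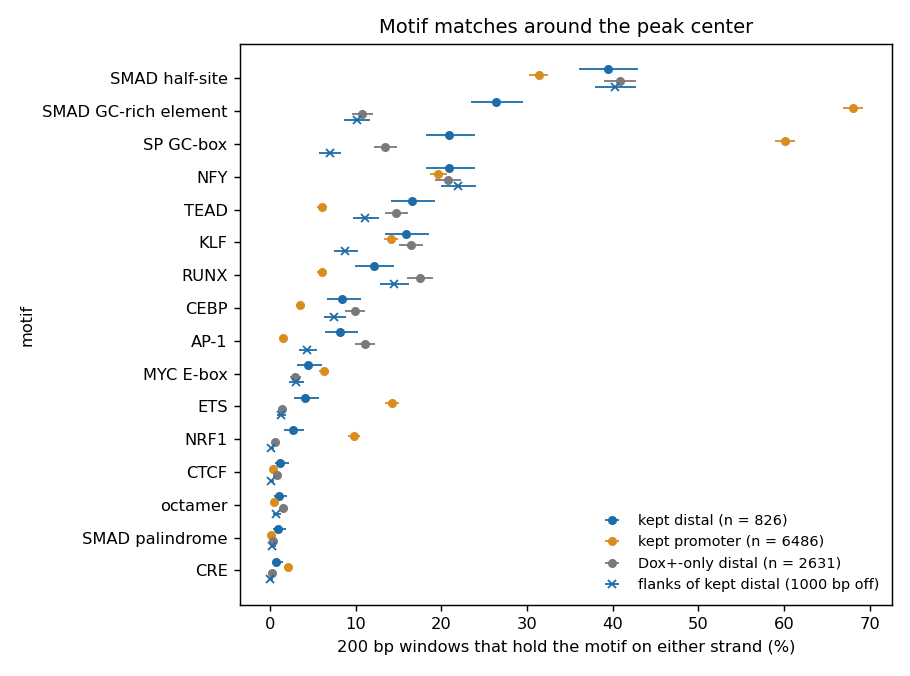
Share of 200 bp windows (x axis, percent, with exact 95% binomial intervals) that hold each motif (y axis) in the 3 peak sets and in windows 1000 bp to each side of the kept distal peaks. For GGCGC the kept distal peaks stand at 26.4%, between 10.8% and 68.0% of the other sets, and for AP-1 at 8.23%, above their flanks at 4.36%.

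The sequences around the centers of 3 members near known SMAD3 target genes are printed here as examples with many GC-rich matches. Most members near the listed target genes were CpG-poor. Capitals mark the half-site, the GC-rich SMAD element, the AP-1 site and the TEAD core on either strand, and the letters are those of the plus strand of mm10 (GRCm38) from the RefSeq genome, 5′ to 3′. The 3 members below had the most marked matches among those within 10 kb of a listed target gene and were singled out after the letters were seen.
Id3 first member, chr4:136134986-136135285: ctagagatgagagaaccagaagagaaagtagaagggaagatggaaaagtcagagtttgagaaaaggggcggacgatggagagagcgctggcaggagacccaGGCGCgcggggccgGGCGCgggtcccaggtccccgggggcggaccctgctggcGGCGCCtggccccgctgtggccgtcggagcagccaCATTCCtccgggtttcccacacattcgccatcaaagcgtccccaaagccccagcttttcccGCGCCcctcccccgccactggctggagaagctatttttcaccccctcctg
Id3 second member, chr4:136140406-136140705: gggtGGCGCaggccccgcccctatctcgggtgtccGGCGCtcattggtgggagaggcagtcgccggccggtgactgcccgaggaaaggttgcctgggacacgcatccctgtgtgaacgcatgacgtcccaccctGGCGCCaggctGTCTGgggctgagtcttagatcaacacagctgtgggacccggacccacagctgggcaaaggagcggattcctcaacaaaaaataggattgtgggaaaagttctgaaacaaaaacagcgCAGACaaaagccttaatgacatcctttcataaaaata
Ski member, chr4:155150487-155150786: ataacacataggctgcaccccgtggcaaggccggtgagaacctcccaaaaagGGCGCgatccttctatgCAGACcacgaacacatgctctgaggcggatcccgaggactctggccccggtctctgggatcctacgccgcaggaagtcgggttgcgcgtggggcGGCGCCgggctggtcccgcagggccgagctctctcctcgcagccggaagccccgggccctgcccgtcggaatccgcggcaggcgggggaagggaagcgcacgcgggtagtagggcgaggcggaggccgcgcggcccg

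The Id3 windows hold 5 and 4 matches to GGCGC over both strands, and the Ski window holds 3, where a palindromic match counts on each strand. In these windows the CpG observed/expected ratios were 0.702, 0.658 and 0.947. Over the whole peak the second Id3 member had a ratio of 0.588 and counted as CpG-poor. The first Id3 member and the Ski member were CpG-island-like. Id3 encodes an inhibitor of basic helix-loop-helix factors, and SKI is a corepressor that restrains SMAD-driven transcription.

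Near genes known as SMAD3 targets or feedback regulators the members were frequent. Within 10 kb of 10 of the 19 genes of that list lay at least 1 member (15 members in all), against 874 of 21911 protein-coding genes (3.99%). Kept promoter peaks lay within 10 kb of 16 of these 19 genes and of 39.1% of protein-coding genes, and Dox+-only distal peaks within 10 kb of 4 (21.1%) and of 9.46% of protein-coding genes. The list was drawn up with earlier results of these data known, so its count describes it and supports nothing further. The 10 genes were Adam12, Bhlhe40, Ccn1, Ccn2, Id1, Id2, Id3, Ltbp2, Ski and Smad7. Smad7 encodes the inhibitory SMAD of the feedback loop, and Ccn1 and Ccn2 encode matricellular proteins.

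Several of these members lay past the end of the gene. The Ccn2 member (chr10:24599443-24600032) was centered 1054 bp past the annotated end, with folds of 3.74 and 2.78 in Dox+ replicates 2 and 3, 2.92 in Dox- replicate 2 and no peak in the other lists. One Ccn1 member was centered 950 bp past the end of the gene, a member of Bhlhe40 1359 bp, and the members of Id1 1456 and 4268 bp. The Id3 members and the Id2 member lay upstream of their genes. At Ski the 3 members lay 3438 bp past the end, and inside the gene at chr4:155173601-155173795 and chr4:155174513-155174687. Those last 2 overlapped the same Dox- peak, so they are not separate Dox- observations.

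The other lists held fewer. Among 26 fibroblast transcription factor genes, 6 (23.1%) had a member (Klf4, Klf6, Meis1, Nfib, Nfic and Tead3). Among 21 matrix and contractile genes Col1a1 and Col3a1 (9.52%) did. Dox+-only distal peaks, a larger set, lay near more genes than the members in each of these other lists. They lay near 7 fibroblast factor genes, 6 matrix and contractile genes and 6 genes of the TGF-β list. For the AP-1, pluripotency and epithelial genes the numbers were 4, 3 and 3. Over all protein-coding genes the shares were 9.46% for these peaks and 3.99% for the members. Of 20 genes for TGF-β ligands, receptors and SMADs, Fstl1 and Tgfb1 had 2 members each. Those of Tgfb1 lay nearest the start of Ccdc97 and overlapped the same Dox- peak, so they are not separate Dox- observations. Of 11 AP-1 genes only Fosl2 had any, with 2 members. Among 14 pluripotency genes Nanog had 1 member, at chr6:122702565-122703281, with deposited folds of 4.67 in Dox+ and 2.05 in Dox-. It was called in Dox+ replicates 2 and 3 and Dox- replicate 2 and overlapped no OCT4 peak. None of the 11 epithelial genes had a member, and with 3.99% of all protein-coding genes near one, so short a list gives no reading. Of the introduced factors, only Klf4 had exonic sequence under a member (chr4:55530133-55530854, all 722 bp in an annotated exon), and reads of an introduced cDNA cannot be told apart from genomic ones there.

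Some loci held several members. Centers within 50 kb of the next formed 670 loci, of which 567 had a single member and 32 had at least 3, with 117 members together. The fullest locus, with 7 members over 87349 bp, ran from Tha1 to Socs3. Stretches near Ptma, Kdm6b and Irf2bp2 held 6 each, and Rara held 5 in its introns. By genes within 10 kb, the most members lay at Dnm3 (7), Gm20388 (6), Kdm6b (5) and Rara (5). All members of Dnm3, Gm20388 and Rara lay inside the gene. These counts were not set against gene length, and a longer gene can hold more members. KDM6B removes a repressive methyl mark from histone H3, and RARA is a retinoic acid receptor.

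Annotated elements other than protein-coding genes were also found under the members. A VISTA element, tested for enhancer activity in mouse embryos and annotated by RefSeq, was overlapped by 21 members (2.54%, interval 1.58 to 3.86%), against 1.22% (0.833 to 1.71%) of the Dox+-only distal, 0.0771% of the kept promoter and 3.75% (0.780 to 10.6%) of the 80 partnered but listed distal peaks. Active tissues included the hindbrain and the limb for 7 of the 21 each, and the forebrain and the midbrain for 6 each. A tRNA gene was overlapped by 11 members (1.33%, interval 0.667 to 2.37%), against 0.570% (0.319 to 0.939%), 0.170% and 2.5% (0.304 to 8.74%) of the same sets. RNA polymerase III transcribes tRNA genes, and the member with n-TMcat8 (chr13:21974250-21975172) was called in 1 Dox+ and 2 Dox- lists.

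By the naming rule, the members with the highest smaller fold of the 2 merged lists, among those in at least 2 lists of each group, lay past the ends of Eif3d, Snhg5 and H3f3b, inside Ldb1, Gm37352, Cpt1a and Synpo, 2561 bp from the start of Id2, and farther from any named start, 18485 bp from Gm6728 and 24686 bp from Smad7. The choice rests on the fold column that did not repeat between lists and is a naming rule only. The first one, nearest Foxred2, had a merged fold of 6.49 and replicate folds of 2.64 and 4.93 in Dox+, and a merged fold of 5.65 with 2.69 and 1.99 in Dox-. The Synpo member nearest Myoz3 had a merged Dox+ fold of 11.3, while its highest Dox+ replicate fold was 5.05. In both, the pooled value stood above every replicate value of the same group.

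The sequences of the first 5 by that rule are shown to give the letters of the named members, 2 of them past a gene end. Capitals mark the same 4 motifs, and a window of up to 300 bp around the center is printed.
Eif3d gene end, chr15:77957748-77958047: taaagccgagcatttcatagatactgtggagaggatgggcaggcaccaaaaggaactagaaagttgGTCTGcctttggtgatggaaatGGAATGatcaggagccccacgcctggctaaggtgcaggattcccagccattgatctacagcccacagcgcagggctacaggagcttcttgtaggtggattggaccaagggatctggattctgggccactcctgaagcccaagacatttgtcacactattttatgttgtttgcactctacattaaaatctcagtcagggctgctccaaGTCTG
Ldb1 intron, chr19:46042198-46042497: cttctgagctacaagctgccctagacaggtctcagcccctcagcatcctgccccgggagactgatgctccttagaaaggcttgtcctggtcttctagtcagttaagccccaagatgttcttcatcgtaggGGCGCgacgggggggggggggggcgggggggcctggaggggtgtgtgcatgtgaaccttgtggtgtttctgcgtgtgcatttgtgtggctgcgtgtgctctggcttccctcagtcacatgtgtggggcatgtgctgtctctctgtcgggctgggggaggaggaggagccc
Snhg5 gene end, chr9:88519668-88519967: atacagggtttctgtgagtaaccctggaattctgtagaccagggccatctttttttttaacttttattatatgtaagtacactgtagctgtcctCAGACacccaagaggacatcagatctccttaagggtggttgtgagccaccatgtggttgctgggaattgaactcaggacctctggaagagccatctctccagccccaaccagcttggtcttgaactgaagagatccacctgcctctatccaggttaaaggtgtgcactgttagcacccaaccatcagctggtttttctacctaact
Nearest Gm6728, chr6:136468565-136468837: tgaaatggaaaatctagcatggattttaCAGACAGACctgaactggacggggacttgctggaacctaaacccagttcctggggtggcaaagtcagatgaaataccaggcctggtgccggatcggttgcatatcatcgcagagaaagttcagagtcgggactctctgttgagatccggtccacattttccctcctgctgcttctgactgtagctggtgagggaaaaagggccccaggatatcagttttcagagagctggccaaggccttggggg
Gm37352 exon, chr8:84201820-84202119: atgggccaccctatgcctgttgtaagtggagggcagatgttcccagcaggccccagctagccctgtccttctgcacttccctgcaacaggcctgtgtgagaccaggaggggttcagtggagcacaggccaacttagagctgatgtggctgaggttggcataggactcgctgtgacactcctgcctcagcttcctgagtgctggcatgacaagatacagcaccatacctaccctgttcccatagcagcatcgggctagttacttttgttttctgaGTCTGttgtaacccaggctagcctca

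Only 1 GGCGC and no TGACTCA occurred in these 5 windows, and CAGAC occurred up to 2 times in each, with none at Ldb1. The Snhg5 window was 70.7% soft-masked, which marks interspersed or simple repeats in the reference. Over whole members the median soft-masked share was 9.58%, and in the Dox+-only distal peaks it was 10.7%. Whether reads at repeats shaped this peak was not tested.

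Few members overlapped a called OCT4 peak. A merged OCT4 peak overlapped 7 of 826 (0.847%, interval 0.341 to 1.74%), against 424 of 2631 Dox+-only distal peaks (16.1%) and 24 of 6486 kept promoter peaks (0.370%). Among the 80 partnered but listed distal peaks it overlapped 2 (2.5%, interval 0.304 to 8.74%). By replicate list, OCT4 overlapped 3 members (0.363%), 5 (0.605%) and 0, which allows a share of up to 0.363%. The same lists overlapped 10.9%, 9.35% and 1.33% of the Dox+-only distal peaks and 0.170%, 0.231% and 0.0463% of the kept promoter peaks. The mean over lists was 0.323% ± 0.305 (SD, n = 3) for the members and 7.20% ± 5.14 (SD, n = 3) for the Dox+-only distal peaks. The share was lower for the members in 3 of 3 lists, with a difference of members minus others of -6.87 ± 4.88 percentage points (SD) and a two-sided exact sign-flip permutation p of 0.25, the smallest that 3 lists allow, and 0.5 after Benjamini-Hochberg adjustment over 2 comparisons.

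Against the kept promoter peaks, which averaged 0.149% ± 0.0942 (SD, n = 3), the members were higher by 0.174 ± 0.211 percentage points, and lower in 1 of 3 lists (exact permutation p = 0.5, adjusted 0.5). This difference was smaller than its spread over lists, and it was -0.0618 points when only peaks with a -log10 q of at least 2 were kept. The first 2 OCT4 lists, with over 1000 peaks each, carry nearly all of the overlaps.

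The 7 members with an OCT4 peak are each a single site. In order of the OCT4 -log10 q, the leading ones lay in Trip11 (chr12:101852137-101852475), 42036 bp from the start of Gm48915 (chr15:23582047-23582280), 54599 bp from that of Ccdc80 (chr16:45038609-45038997), in Cpt1a (chr19:3323276-3325775) and in Il6ra (chr3:89895471-89897156). Their OCT4 -log10 q was 19.2, 10.8, 9.84, 8.82 and 4.86. The first 3 OCT4 regions were in 2 OCT4 replicate lists each, the Il6ra one in 1 and the Cpt1a one in none. CPT1A takes long-chain fatty acids into mitochondria, and IL6RA is the receptor chain that binds interleukin-6.

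Coverage at those OCT4 regions was read over their central 20 bp, as the deposited signal of pooled ChIP reads with the input taken away, in units of the genome-wide mean. The Trip11 site had an OCT4 signal of 31.4, a Dox+ SMAD3 signal of 16.0 and a Dox- SMAD3 signal of 10.5. The values in the same order were 27.3, 7.63 and 7.88 at Gm48915, 19.6, 23.4 and 3.94 at Ccdc80, 18.3, 8.21 and 8.57 at Cpt1a and 23.2, 11.5 and 2.94 at Il6ra. Medians over all 2083 summit entries of the OCT4 list were 24.0, 7.55 and 0, and a Dox- peak nearby is part of how the members were chosen. Of the other 2 OCT4-overlapped members, the one nearest Gm16048 had a Dox- SMAD3 signal of 9.62 and the one nearest Gm11795 had -4, below the median.

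The overlaps of the first 3 with their OCT4 peaks read as follows, with the 4 motifs named above and the OCT4 octamer ATGCAAAT in capitals where found.
Trip11 intron, chr12:101852146-101852427: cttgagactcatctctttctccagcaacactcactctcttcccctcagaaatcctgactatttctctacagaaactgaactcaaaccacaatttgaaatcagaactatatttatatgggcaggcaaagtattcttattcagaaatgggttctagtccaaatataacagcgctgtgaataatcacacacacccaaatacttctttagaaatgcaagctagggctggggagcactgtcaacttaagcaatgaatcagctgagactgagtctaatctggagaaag
Nearest Gm48915, chr15:23582047-23582159: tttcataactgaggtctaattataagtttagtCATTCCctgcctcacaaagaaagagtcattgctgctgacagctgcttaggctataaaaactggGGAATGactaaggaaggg
Nearest Ccdc80, chr16:45038610-45038848: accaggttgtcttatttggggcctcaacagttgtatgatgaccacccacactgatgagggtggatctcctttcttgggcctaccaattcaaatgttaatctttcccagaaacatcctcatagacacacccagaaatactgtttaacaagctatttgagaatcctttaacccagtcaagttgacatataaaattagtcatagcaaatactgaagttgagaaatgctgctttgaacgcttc

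The only capitals are the 2 TEAD cores in the Gm48915 stretch, and no octamer occurred in any of the 3. Over all members the octamer was in 1.09% of center windows, against 1.52% of the Dox+-only distal peaks, 0.771% of all peaks and 0.726% of flanks.

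The authors' comparison of OCT4 with SMAD3 in Dox+ cells gives a further readout. When its tested regions were rebuilt in the same way, 2007 of 9903 (20.3%) were listed, and 586 members lay in such a region. A listed site was overlapped by 71 of these 586 (12.1%), against 11.3% of the kept promoter and 41.5% of the Dox+-only distal peaks in a tested region. Over all 2007 listed sites the authors' mean was higher for SMAD3 in 658 (32.8%) and higher for OCT4 in 1349. In 57 of the 71 members the authors' mean was higher for SMAD3, with a median log2 concentration of 4.03 for SMAD3 and 2.18 for OCT4. In the other 14 it was higher for OCT4, with medians of 4.61 for OCT4 and 2.90 for SMAD3, and 5 of these 14 overlapped a merged OCT4 peak. One of the 14 was the Nfib member nearest Gm11266 (chr4:82512791-82513531), with 6.05 for OCT4 and 4.53 for SMAD3 and no merged OCT4 peak, so a member without a called OCT4 peak is not shown to lack OCT4. These are group means with no value per replicate.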

How the data were processed

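ChIP-seq of SMAD3 (Dox+ and Dox-, 3 replicates each) and OCT4 (Dox+, 3 replicates) was used with groups and replicate numbers as the labels give them, and inputs (13 samples in all) only through the authors' calls. According to the submitters' processing notes and the methods, reads were trimmed (Trimmomatic 0.36), aligned to mm10 with Bowtie2, freed of duplicates, of reads with a mapping quality under 40 and of blacklisted regions, and peaks were called against pooled inputs with MACS2 2.1.0, on each replicate and on pooled replicates (merged lists). SMAD3 peaks were broad (cutoff 0.1) and OCT4 peaks narrow (q-value of 0.01). The deposited peak lists give a linear ratio (fold over input) beside the −log10 of the q-value. Deposited signal around OCT4 regions is a score that can be negative, pooled ChIP minus input coverage in 10 bp bins. The authors' tables made with DiffBind 1.16.3 hold only sites past an FDR of 0.1 and a log2 fold of 1 in either direction, and only their positions and the deposited log2 group means were used. Their fold, p-value and FDR columns were not used.

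Overlap meant at least 1 bp. Where several peaks of a replicate list or of the merged Dox- list overlapped a member, the highest fold was used. For the merged Dox- list the highest −log10 q was used in the same way. Transcript starts, exons and gene ends came from GENCODE M21, and tRNA genes, VISTA elements and sequence (GRCm38) from RefSeq. Gene proximity meant 10 kb. Motifs were searched on both strands within 100 bp of the center, and in windows centered 1000 bp to each side as flanks, which can lie inside the widest peaks. Coverage was averaged over the central 20 bp. Shares have exact (Clopper-Pearson) 95% intervals, which cover counting error only, and a share of 0 was given with the limit of 3 counts. Shares in OCT4 lists were compared by an exact sign-flip permutation test paired by list. Named members were the 10 with the highest smaller merged fold among those in at least 2 lists of each group, the 5 with the highest OCT4 −log10 q, the 3 on each side of 1000 bp, genes with at least 5 members, and members within 10 kb of listed genes. Others are said to be chosen after their values were seen. The members, gene lists, sets and motifs were chosen with earlier results of these data known. The steps for overlap, distance and permutation gave the known answers on simulated data. Python 3.11.15, numpy 2.4.6, scipy 1.17.1, pysam 0.24.0 and matplotlib 3.10.9 were used.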

Additional observations from a re-analysis of the deposited data

How the results depend on the processing

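The number of kept distal peaks was 753 with an overlap of at least 50% of the shorter peak and 812 when counted from the merged Dox- list, but 427 at over 5000 bp from a transcript start, 133 with a -log10 q of at least 2 in both merged lists and 203 when at least 2 lists of each group took the place of the overlap with the merged Dox- list (201 members and 2 other peaks). The q-values of the broad lists did not repeat between lists. The number of members in at least 2 lists of each group ranged from 11 to 201 when 1 SMAD3 replicate was left out, and was 130 when a list peak had to overlap the 200 bp around the center, which a wide member meets less readily than an overlap of any base. At over 5000 bp from a start, 7.03% of centers were exonic and 64.2% intergenic. A window of 250 bp to each side raised the AP-1 share to 16.0% and the GC-rich element to 40.6%, as a longer window must hold at least as many matches. The downstream share was 28.9% when defined as within 2000 bp of a gene end on either side and 33.5% with at least 2 lists of each group (203 peaks), and the CpG-island-like share was then 32.5%. The center overlap and these last definitions were added after seeing the data. The OCT4 difference from the kept promoter peaks turned to -0.0618 percentage points with a -log10 q of at least 2, and the cause was not tested. The OCT4 difference from the Dox+-only distal peaks stayed between -9.64 and -5.04 percentage points with 1 OCT4 list left out, where the smallest exact p is 0.5. Of the 30 values for the other 15 motifs, 16 moved beyond their interval. With a -log10 q of at least 2 these were the SMAD palindrome, TEAD, the SP GC-box and the MYC E-box CACGTG. The rest came with the wider window, which must hold at least as many matches. No paired analysis was possible because Dox+ and Dox- SMAD3 lists are compared by no test here, since the members were chosen from that comparison. The peak lists hold no read totals, so how far sequencing depth limited the short lists is unknown.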
